A study of Mus musculus with 6 samples.

Results

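The neuronal cytoskeleton genes Nefl, Nefm, Nefh, Ina, Map1a, Map1b, Map2, Tubb3, Tubb2b and Tuba1a were followed in RNA sequencing of the mouse cerebral cortex at 6 and at 16 months of age. These 10 genes were chosen by name, as the subunits of the neurofilament, the classical microtubule-associated proteins of dendrites and axons and the tubulin isotypes typical of neurons, from the 38355 genes listed in the count tables. Whole cortical hemispheres of inbred wild-type C57BL/6 mice, without a transgene or treatment, were compared between 6 months (n = 3) and 16 months (n = 3). A deposited note on housing gives the younger age as 3 months, whereas all other labels and the study give 6 months, which is the age used here. The study counts 3 brains per age, but the labels do not say how many hemispheres went into a library or whether tissue of several animals was pooled, and the P-values measure the spread between these samples.

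Neurofilaments are the intermediate filaments of neurons. They are built from a light, a medium and a heavy subunit (encoded by Nefl, Nefm and Nefh) together with alpha-internexin (Ina), they fill the axon and they set its calibre, and light chain shed into blood is used as a marker of axonal damage. The light chain forms the core of the filament, while the long tails of the medium and heavy chain carry many phosphorylation sites. Microtubules are hollow polymers of alpha- and beta-tubulin that serve as tracks for transport. Map2 stabilises them in dendrites, Map1a in mature neurons and Map1b above all in growing ones.

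The total of counts on genes lay between 29797253 and 46519280 per sample, and each of the 10 genes had at least 1887 counts in every sample. Levels are given as CPM, the counts of a gene relative to a library of fixed size, after TMM scaling, which corrects for library size. The samples differed in a way that age does not explain. Across genes, the deviation from the mean of the age followed the GC content of the transcript with r = 0.59 in sample 1 and r = -0.58 in sample 2 of 16 months, whereas r was between -0.13 and 0.16 in the remaining 4 samples. The median SD between samples was 0.13 on the log2 scale at 16 months and 0.06 at 6 months. Every comparison was therefore also made after correcting each sample for GC content and transcript length by its median over bins of genes, called the offsets. All lists of neuronal markers were well expressed, the summed level of 10 pan-neuronal markers being between 8476 and 8632 CPM at 6 months and between 8340 and 9004 CPM at 16 months.

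Differences between the ages were small for all 10 genes. In the quasi-likelihood fit of edgeR, 0 of the 10 had a Benjamini-Hochberg adjusted P-value under 0.05, against 1.67% of the 17120 genes tested (286 genes, of which 134 or 0.783% were higher and 152 or 0.888% lower at 16 months). DESeq2 called 0 of the 10 as well, against 2.67% of its genes. The unadjusted P-value was under 0.05 for 4 of the 10 (Nefh, Ina, Tubb3 and Tuba1a), against 17.4% of all genes tested. The smallest adjusted P-value was 0.20, and the 95% confidence intervals of the 10 differences together ran from -0.22 to 0.35 on the log2 scale, which is from 0.860-fold to 1.27-fold. A missed threshold does not show equal levels, and each gene has its own interval, which lay above 0 for the 4 genes with an unadjusted P-value under 0.05. The fitted difference was above 0 for 9 genes and below 0 for Nefl, with a median of 0.11, while 50.3% of all genes tested lay above 0. The 3 samples of 16 months lay apart from the 3 of 6 months in 6 of the 10 genes (Nefm, Nefh, Ina, Map1b, Tubb3 and Tuba1a), each time with 16 months higher, against 23.7% of all genes tested, in either direction. In whole tissue, fewer cells of a type and less RNA per cell cannot be told apart.

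**Figure D1:**
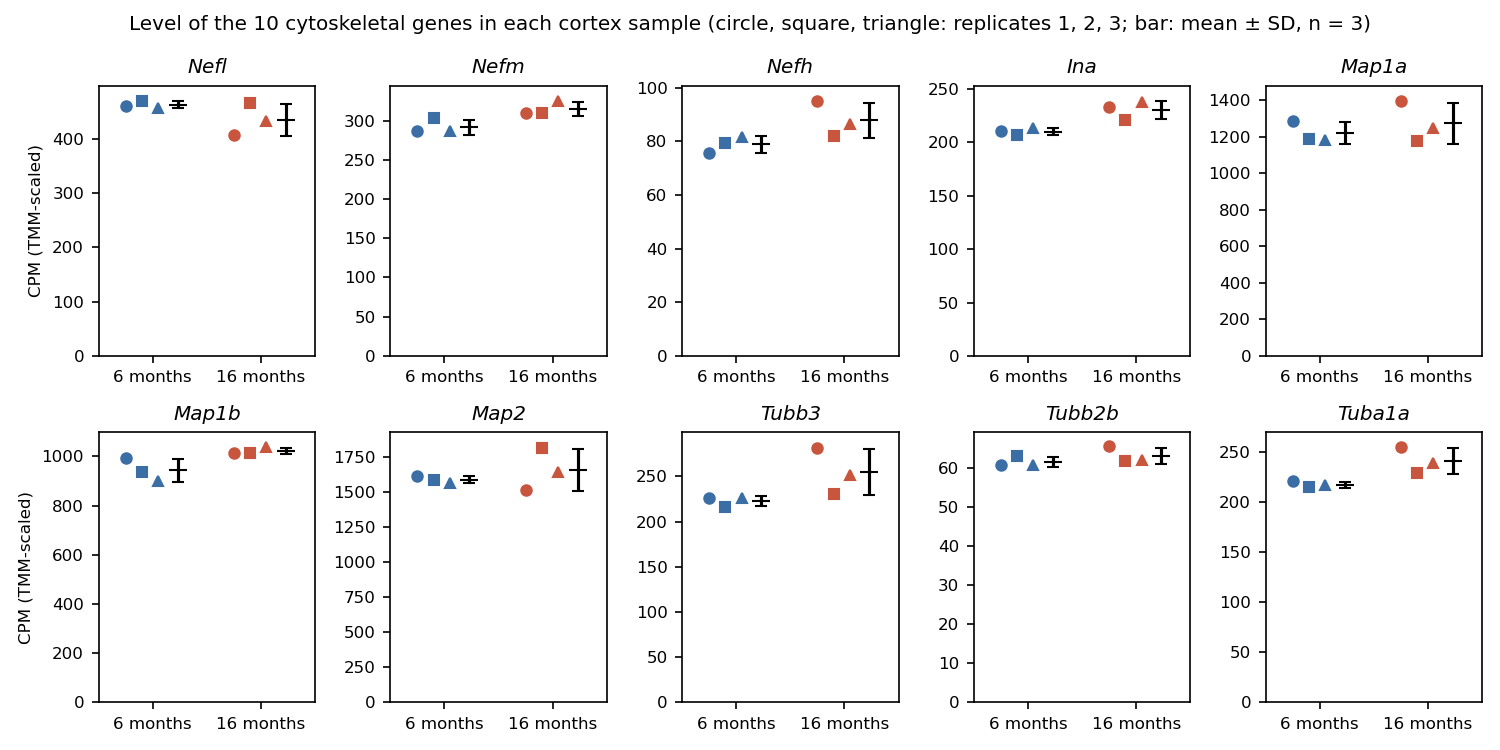
Level of each of the 10 genes in CPM (vertical axis, starting at 0) in the 3 samples of 6 months (blue) and of 16 months (red), with circle, square and triangle for samples 1, 2 and 3 and black bars for the mean ± SD. The ages overlap in Nefl, Map1a, Map2 and Tubb2b and lie apart in the other genes, and the red points of Tubb3 and Map2 are spread widely.

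Among the neurofilament genes, Nefl (chr14:68083863-68089095, plus strand, GRCm38), the gene of the light chain, had the highest level per kilobase of exon of the 10 genes, with 137 CPM per kb at 6 months, or the next to highest, after Map2, when the longest transcript was used as length. It was measured at 460.9, 470.1 and 456.6 CPM in samples 1, 2 and 3 of 6 months and at 407.0, 465.0 and 432.5 CPM in those of 16 months. The values overlapped, since sample 2 of 16 months lay within the range of 6 months and the other samples of 16 months lay below it. The fitted log2 difference was -0.09 (SE 0.06, 95% interval -0.22 to 0.04, adjusted P = 0.473, edgeR's quasi-likelihood test). After the offsets, all 3 samples of 16 months lay below those of 6 months, sample 2 narrowly with 459.5 CPM against at least 461.8 CPM, and the log2 difference was -0.11 (SE 0.04, adjusted P = 0.0623, edgeR).

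Nefm (chr14:68082590-68124846, minus strand), the medium chain, was measured at 286.3, 302.7 and 286.1 CPM at 6 months and at 309.1, 309.4 and 325.5 CPM at 16 months. The ages lay apart, and the log2 difference was 0.11 (SE 0.05, 95% interval -0.0048 to 0.22, adjusted P = 0.306, edgeR's quasi-likelihood test). After the offsets the ages overlapped, sample 1 of 16 months lying below all samples of 6 months with 275.4 CPM. In the annotation, Nefl lies within the span of Nefm on the opposite strand. The exons of Nefm cover 1108 exon bases of Nefl, 32.8% of its transcript. The strand setting of the counting is not given in the sources used here, so that reads from this stretch may have been counted for either gene or for neither.

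Nefh (chr11:4938754-4948064, minus strand), the heavy chain, had the lowest level per kilobase of the 10 genes, with 19.7 CPM per kb at 6 months under both lengths. It was measured at 75.5, 79.4 and 81.6 CPM at 6 months and at 94.8, 82.0 and 86.5 CPM at 16 months. The ages lay apart by a narrow margin, sample 2 of 16 months being just above sample 3 of 6 months, and the log2 difference was 0.16 (SE 0.06, 95% interval 0.01 to 0.30, adjusted P = 0.252, edgeR's quasi-likelihood test). After the offsets the difference was 0.11 (adjusted P = 0.105, edgeR). No other gene in the annotation shares exons or a near-identical stretch with Nefh.

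Ina (chr19:47014698-47025327, plus strand), whose product alpha-internexin assembles with the 3 neurofilament chains, was measured at 210.1, 206.8 and 213.0 CPM at 6 months and at 232.9, 221.1 and 237.6 CPM at 16 months. All samples of 16 months lay above all of 6 months, and the log2 difference was 0.13 (SE 0.05, 95% interval 0.02 to 0.25, adjusted P = 0.210, edgeR's quasi-likelihood test). After the offsets sample 1 of 16 months, at 213.8 CPM, lay within the range of 6 months. Its end shares 456 exon bases with Nt5c2 on the opposite strand.

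Relative to Nefl, the other neurofilament genes had higher counts at 16 months, with Nefm and Ina apart between the ages and Nefh overlapping. The ratio of 2 genes within a sample does not depend on the scaling between samples, and these ratios of counts, which are not corrected for length, are read only between samples. None of these tests could pass the threshold with 3 samples against 3. For every count on Nefl there were 0.6211, 0.644 and 0.6266 counts on Nefm at 6 months and 0.7595, 0.6654 and 0.7525 at 16 months. All samples of 16 months had the higher ratio, with a log2 difference of 0.20 (two-sided exact permutation test, P = 0.1, which is the smallest value possible with 3 samples against 3, adjusted P = 0.2 over 6 ratios). The ratio of Ina to Nefl was 0.4559, 0.44 and 0.4664 at 6 months and 0.5723, 0.4754 and 0.5493 at 16 months. This ratio lay apart too, with a log2 difference of 0.23 (exact permutation test, P = 0.1, adjusted P = 0.2). The ratio of Nefh to Nefl, with 0.1637, 0.1688 and 0.1787 at 6 months and 0.233, 0.1763 and 0.2 at 16 months, overlapped in sample 2 of 16 months (log2 difference 0.24, exact permutation test, P = 0.2, adjusted P = 0.3). With the offsets all 3 ratios lay apart, with log2 differences of 0.18, 0.22 and 0.22 for Nefm, Ina and Nefh. In the counts as deposited the differences stayed above 0, between 0.14 and 0.34, when any sample was left out. In all 3 ratios sample 2 of 16 months was the nearest to the 6-month values in the counts as deposited, but not after the offsets in the ratio of Nefm.

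Corrected for exon length, Nefl made up 50.6%, 50.6% and 49.9% of the summed level of the 4 genes at 6 months and 44.7%, 49.2% and 45.8% at 16 months. The mean share was 50.3% ± 0.383 (SD, n = 3) at 6 months and 46.6% ± 2.33 (SD, n = 3) at 16 months. The share of Ina was 23.8% ± 0.568 at 6 months and 25.8% ± 1.22 at 16 months, and that of Nefm was 18.6% ± 0.412 and 19.7% ± 0.530 (SD, n = 3 each). The ages lay apart in these 3 shares (two-sided exact permutation test, P = 0.1 each, as low as 3 against 3 allows, adjusted P = 0.175 over 7 shares), although that of Nefm overlapped with the offsets. The share of Nefh overlapped between the ages, with 7.26% ± 0.271 at 6 months and 7.97% ± 0.760 at 16 months, and lay apart with the offsets, with 16 months higher. The summed level of the 4 genes overlapped too, between 1033 and 1059 CPM at 6 months and between 1044 and 1082 CPM at 16 months. The shares depend on the length used. With the longest transcript as length, the mean share of Nefl was 45.52% at 6 months and 41.85% at 16 months. Nefm then made up more than Ina, with 26.36% against 21.56% at 6 months and 27.83% against 23.16% at 16 months.

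**Figure D2:**
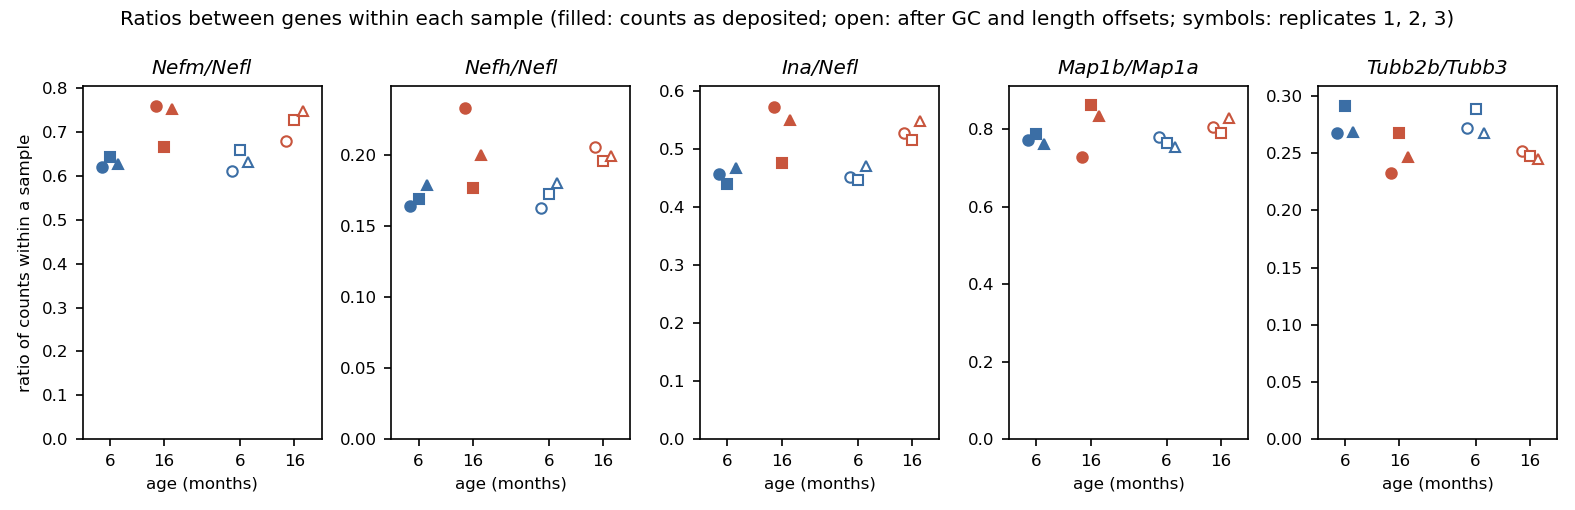
Ratio of the counts of 2 genes within each sample (vertical axis, starting at 0, no unit) at 6 months (blue) and 16 months (red), for the counts as deposited (filled) and after the offsets for GC content and length (open), with circle, square and triangle for samples 1, 2 and 3. The ratios of Nefm and Ina to Nefl are higher and that of Tubb2b to Tubb3 is lower in all samples of 16 months, whereas Map1b to Map1a overlaps in the filled points.

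The genes of the microtubule-associated proteins were the most abundant of the set by counts. Map1a (chr2:121289600-121310832, plus strand) was measured at 1286.7, 1189.3 and 1180.6 CPM at 6 months and at 1394.7, 1176.5 and 1245.3 CPM at 16 months. The ages overlapped, and the log2 difference was 0.06 (SE 0.07, 95% interval -0.09 to 0.22, adjusted P = 0.694, edgeR's quasi-likelihood test). The sign depended on sample 1 of 16 months, without which the difference was -0.0097. With the offsets the spread narrowed, to values between 1216 and 1264 CPM at 6 months and between 1232 and 1269 CPM at 16 months, and the 95% interval of the log2 difference was -0.04 to 0.07.

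Map1b (chr13:99421446-99516540, minus strand) was measured at 994.9, 936.0 and 899.2 CPM at 6 months and at 1015.8, 1014.3 and 1038.1 CPM at 16 months. Again the ages lay apart, and in contrast to most of the 10 genes the samples of 16 months were the closer together, with an SD of 0.02 on the log2 scale against 0.07 at 6 months. The log2 difference was 0.12 (SE 0.05, 95% interval -0.00080 to 0.23, adjusted P = 0.289, edgeR's quasi-likelihood test) and 0.09 (adjusted P = 0.0673, edgeR) with the offsets, where the ages lay apart as well.

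Map2 (chr1:66175273-66442583, plus strand), a standard marker of dendrites, had the highest CPM of the 10 genes, and 20 genes in all reached its level. It was measured at 1608.3, 1584.3 and 1560.8 CPM at 6 months and at 1512.1, 1814.1 and 1637.4 CPM at 16 months. Sample 1 of 16 months was the lowest of all 6 samples and sample 2 the highest, and the log2 difference was 0.06 (SE 0.07, 95% interval -0.08 to 0.21, adjusted P = 0.677, edgeR's quasi-likelihood test). Without sample 2 of 16 months it was -0.0090. This gap between samples 1 and 2 of 16 months, -0.26 on the log2 scale, was larger than the median of -0.07 for genes of the same GC content, and -0.21 of it remained after the offsets. The ratios of Map1b and of Map2 to Map1a overlapped between the ages in the deposited counts, with log2 differences of 0.06 (exact permutation test, two-sided, P = 0.5, adjusted P = 0.6) and -0.00067 (P = 1, adjusted P = 1). After the offsets the ratio of Map1b to Map1a lay apart, with a log2 difference of 0.08.

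Among the tubulin genes, Tubb3 had the largest difference of the 10 genes. Tubb3 (chr8:123411424-123422015, plus strand), encoding the beta-tubulin isotype used as a marker of neurons, was measured at 226.5, 216.1 and 226.2 CPM at 6 months and at 281.1, 230.9 and 252.1 CPM at 16 months. All samples of 16 months lay above all of 6 months, sample 1 of 16 months far above and sample 2 only narrowly. The log2 difference was 0.19 (SE 0.07, 95% interval 0.03 to 0.35, adjusted P = 0.204, edgeR's quasi-likelihood test). After the offsets the values were 223.9, 218.2 and 227.3 CPM at 6 months and 254.6, 251.4 and 252.9 CPM at 16 months. The SD at 16 months thus fell from 25.2 to 1.62 CPM, the log2 difference was 0.18 (SE 0.03, 95% interval 0.12 to 0.24), and the gene passed the threshold (adjusted P = 0.00084, edgeR's quasi-likelihood test).

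Tuba1a (chr15:98949837-98953703, minus strand), an alpha-tubulin strongly used by developing neurons, was measured at 220.7, 215.0 and 216.6 CPM at 6 months and at 254.6, 229.4 and 239.1 CPM at 16 months. The order of the samples was that of Tubb3 at 16 months, and the ages lay apart. The log2 difference was 0.15 (SE 0.05, 95% interval 0.03 to 0.27, adjusted P = 0.200, edgeR's quasi-likelihood test). After the offsets it was 0.14 (SE 0.03, adjusted P = 0.00376, edgeR), with values between 214.6 and 220.9 CPM at 6 months and between 238.3 and 243.2 CPM at 16 months. Of the Tuba1a transcript, 80.6% has a near-identical copy in 9 other genes, among them Tuba1b, Tuba1c and processed pseudogenes, so that its counts rest on the reads that could be placed and are uncertain.

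Tubb2b (chr13:34126748-34130466, minus strand), a beta-tubulin of migrating and growing neurons, was measured at 60.6, 62.9 and 60.7 CPM at 6 months and at 65.4, 61.7 and 62.1 CPM at 16 months. The ages overlapped, and the log2 difference was 0.04 (SE 0.05, 95% interval -0.08 to 0.15, adjusted P = 0.747, edgeR's quasi-likelihood test). A pseudogene of Tubb2a shares 61.4% of its transcript. For every count on Tubb3 there were 0.2677, 0.2911 and 0.2685 counts on Tubb2b at 6 months and 0.2328, 0.2672 and 0.2463 at 16 months. Both ages were apart by a narrow margin, with a log2 difference of -0.15 (two-sided exact permutation test, P = 0.1, as low as the design allows, adjusted P = 0.2), and with the offsets it was -0.16.

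Of the summed level per kb of the 7 beta-tubulin genes tested, Tubb2b made up 4.17% ± 0.146 at 6 months and 3.83% ± 0.190 at 16 months (SD, n = 3 each), with the ages apart (exact permutation test, P = 0.1, adjusted P = 0.175). The share of Tubb3 was 18.6% ± 0.239 and 18.9% ± 0.625, and the share of Tuba1a in the 4 alpha-tubulin genes tested was 49.2% ± 0.115 and 50.3% ± 1.00 (SD, n = 3 each). Both shares overlapped between the ages, although that of Tuba1a lay apart with the offsets, with 16 months higher. Other genes in these sums have near-identical copies too, Tuba1b over 90.9% and Tubb4b over 91.4% of the transcript. Their counts, like those of Tuba1a, rest on the reads that could be placed. The shares are therefore read only between the ages and not as the make-up of the isotypes.

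**Figure D3:**
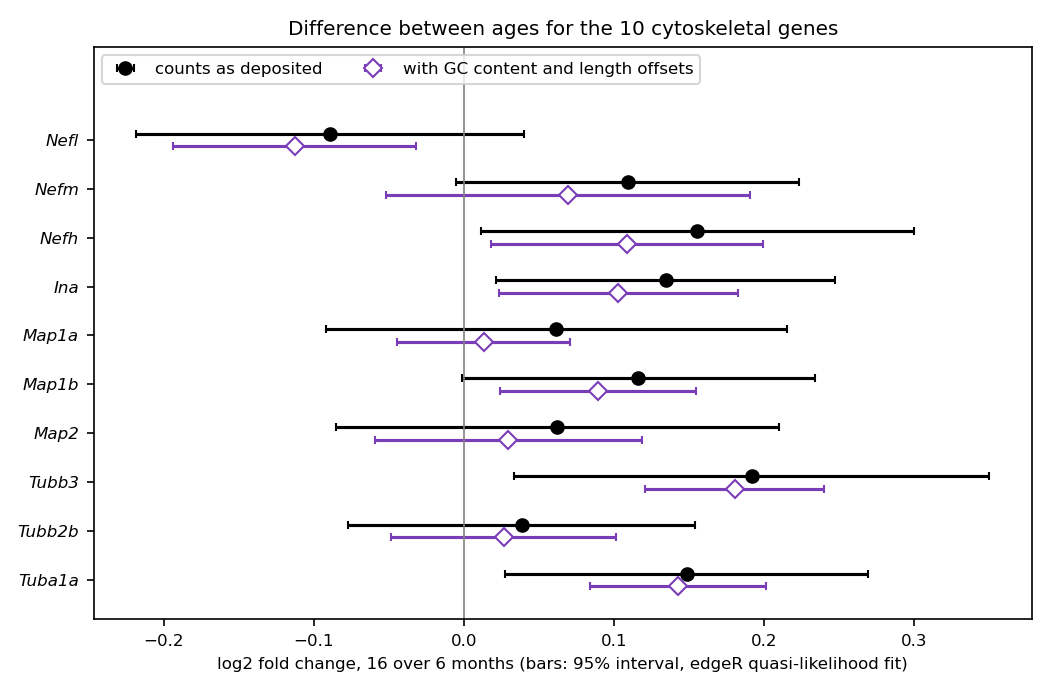
Log2 fold change of 16 over 6 months (horizontal axis) for the 10 genes, with 95% confidence intervals from edgeR's quasi-likelihood fit of the counts as deposited (filled circles) and with offsets for GC content and length (open diamonds). The intervals of Tubb3 and Tuba1a narrow and stay above 0, and Nefl is the only gene with both estimates below 0.

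The GC content of the longest transcript of the 10 genes ran from 47.6% to 58.4%, and the log2 level in sample 1 minus that in sample 2 of 16 months was read against it. This difference was 0.28 for Tubb3 (GC content 57.9%), 0.25 for Map1a (54.9%) and 0.15 for Tuba1a (53.2%), near the median of all genes of the same GC content, and the offsets brought these to 0.02, 0.02 and 0.03. Nefm, Ina and Nefh lay below that median. After the offsets the difference of sample 1 minus sample 2 was -0.28 in Nefm, -0.21 in Map2, -0.18 in Nefl, -0.15 in Ina and -0.11 in Nefh. With the offsets 2 of the 10 genes were called, against 13.9% of all genes tested (2383 genes). Without sample 2 of 16 months 4 were called (Nefh, Ina, Tubb3 and Tuba1a, all higher), against 12.7% of the genes tested, and without sample 1 of 16 months 0 were called, against 5.73%. The share of this GC trend in the differences between the ages was not tested beyond these comparisons.

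**Figure D4:**
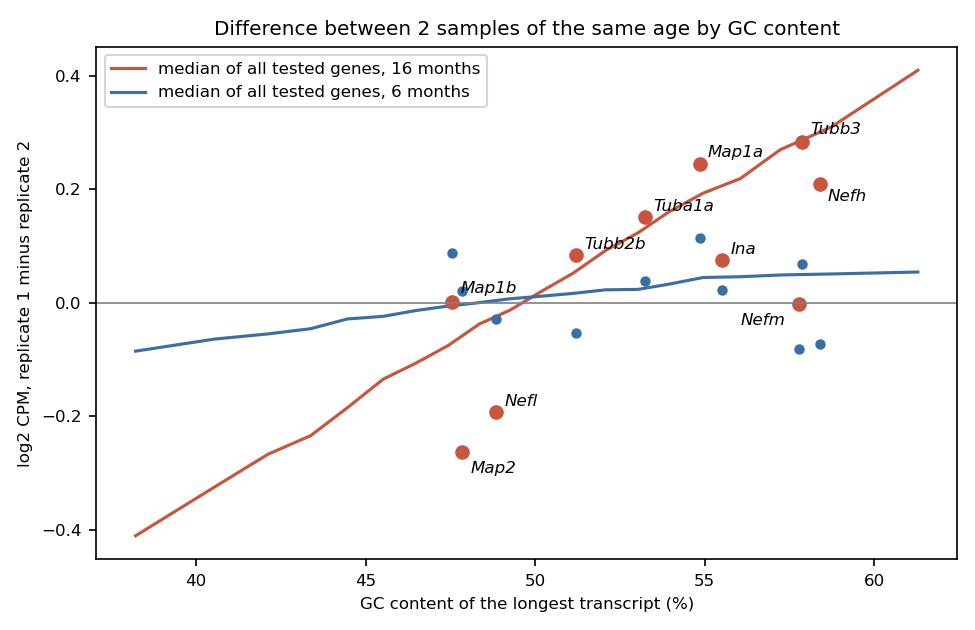
Difference in log2 CPM between sample 1 and sample 2 of the same age (vertical axis) against the GC content of the longest transcript in percent (horizontal axis), for the 10 genes (points, named for 16 months) and as medians of all tested genes in 20 bins (lines), at 16 months (red) and 6 months (blue). The red line climbs from -0.41 to 0.41 and the blue line only from -0.09 to 0.05, and Tubb3, Tuba1a, Map1a and Tubb2b lie near the red line while Map2, Nefl, Nefm, Ina and Nefh lie below it.

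The stretch in front of the gene start, 250 bases of the RefSeq annotation of GRCm38.p6, was at hand for 6 of the 10 genes (Ina, Map1a, Map1b, Map2, Tubb3 and Tuba1a). It is shown for the 4 of them whose ages lay apart, as the sequence next to the start of genes that were higher in all samples of 16 months. Only the bases in front of the start in both RefSeq and GENCODE are printed, 5′ to 3′ on the strand of the gene. They are chr19:47014431-47014680 (plus strand) for Ina, chr13:99516603-99516852 (minus strand) for Map1b, chr8:123411303-123411423 (plus strand) for Tubb3 and chr15:98953704-98953751 (minus strand) for Tuba1a. Capitals mark exact matches to the TATA box TATAAA, the GC box GGGCGG and the CCAAT box CCAAT on either strand, which do not overlap each other.
Ina: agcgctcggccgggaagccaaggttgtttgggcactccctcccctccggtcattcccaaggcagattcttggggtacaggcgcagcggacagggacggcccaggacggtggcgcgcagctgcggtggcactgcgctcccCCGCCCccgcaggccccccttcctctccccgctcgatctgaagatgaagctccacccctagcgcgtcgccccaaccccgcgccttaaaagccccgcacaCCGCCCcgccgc
Map1b: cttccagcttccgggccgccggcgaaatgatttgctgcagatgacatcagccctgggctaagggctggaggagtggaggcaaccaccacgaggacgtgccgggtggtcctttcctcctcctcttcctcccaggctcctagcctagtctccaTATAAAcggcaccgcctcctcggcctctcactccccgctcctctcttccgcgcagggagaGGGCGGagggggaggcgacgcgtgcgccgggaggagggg
Tubb3: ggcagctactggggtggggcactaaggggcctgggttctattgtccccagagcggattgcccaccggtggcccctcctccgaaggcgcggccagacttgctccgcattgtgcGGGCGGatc
Tuba1a: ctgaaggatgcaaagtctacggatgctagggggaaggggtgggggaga
The stretch of Ina had 25 CpG dinucleotides, a GC content of 70.8% and 2 GC boxes. The stretch of Map1b had 19 CpG dinucleotides, 1 TATA box and 1 GC box. The 121 bases of Tubb3 held 1 GC box and the 48 bases of Tuba1a none of the 3 motifs. These 2 stretches are cut short and cannot be set against shares over 250 bases. In the full 250 bases Tubb3 had 2 GC boxes and 1 CCAAT box, and Tuba1a had 1 GC box and 1 CCAAT box. Over the 250 bases of all 32851 RefSeq promoters the median was 6 CpG dinucleotides and a GC content of 52.4%, and 12.4% held the TATA box, 32.7% the GC box and 33.9% the CCAAT box. The 250 bases of Map1a and Map2, whose ages overlapped, had 21 and 34 CpG dinucleotides and 4 and 5 GC boxes. Their GC content was 66% and 81.2%. A link between these traits and the difference between the ages was not tested. The matches describe the sequence and say nothing about binding.

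The other genes of the cytoskeleton were followed in 8 lists, 135 of whose 140 genes were tested. Of these 135, 2 passed the threshold in edgeR's quasi-likelihood fit, Gfap and Dpysl3, against 1.67% of all genes tested. The count of calls in the lists was thus near that share. In the list of 10 other intermediate filament genes, Gfap, which encodes the filament protein of astrocytes, was the 1 gene called by edgeR. The unadjusted P-value of edgeR was under 0.05 for 4 of the 10, against 17.4% of all genes tested. DESeq2 called 3 of the 10, all lower, against 2.67% of its genes. With the offsets 5 were called, 4 lower (Gfap, Nes, Vim and Lmna) and 1 higher (Lmnb1), against 13.9% of all genes tested. These 5 are named here after their values were seen. Gfap fell from 261.6, 252.8 and 262.2 CPM at 6 months to 195.6, 176.4 and 189.9 CPM at 16 months, without overlap. Its log2 difference was -0.47 (SE 0.06, adjusted P = 0.00332, edgeR's quasi-likelihood test), and it was called in all 16 alternative fits. The summed level of the list was between 437.7 and 446.1 CPM at 6 months and between 343.8 and 377.5 CPM at 16 months, and its median log2 difference was -0.06. Gfap is also in the list of astrocyte markers, whose summed level did not go the same way, with 6745 to 7094 CPM at 6 months and 7219 to 7900 CPM at 16 months. The largest part of that sum was Slc1a2, with a mean of 4129 CPM at 6 months and 4597 CPM at 16 months. Of the 10 astrocyte markers, 6 had a fitted difference above 0 and 4, Gfap among them, below 0.

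Of 32 other microtubule-associated proteins, 1 was called by edgeR, against 1.67% of all genes tested. This was Dpysl3, which encodes a collapsin response mediator of growing axons. It rose from 39.9, 38.3 and 38.9 CPM at 6 months to 49.3, 48.7 and 49.0 CPM at 16 months, and the samples of each age were close together. The log2 difference was 0.33 (SE 0.05, adjusted P = 0.0136, edgeR's quasi-likelihood test). The call was lost, with adjusted P-values between 0.0885 and 0.124 (edgeR), when any sample of 6 months or sample 3 of 16 months was left out, although the log2 difference stayed between 0.28 and 0.34 in all 16 alternatives. The median of the list was 0.05, and with the offsets 4 of the 32 were called, 2 in each direction, against 13.9% of all genes tested.

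In the list of 13 other alpha- and beta-tubulin genes DESeq2 called 1, against 2.67% of its genes. The list held 8 genes that passed the filter of edgeR on low counts. In the quasi-likelihood fit 0 of these 8 were called, and 4 had an unadjusted P-value under 0.05, against 17.4% of all genes tested. Their median log2 difference was 0.13, and 4 of the 8 lay apart between the ages, against 23.7% of all genes tested. The summed level of the list was between 1545 and 1585 CPM at 6 months and between 1598 and 1846 CPM at 16 months. The smallest P-value was that of Tubb2a, a beta-tubulin closely related to Tubb2b, with 180.9, 186.3 and 181.2 CPM at 6 months and 226.7, 207.8 and 215.3 CPM at 16 months. No values overlapped, and the log2 difference was 0.25 (SE 0.05, 95% interval 0.13 to 0.36), just beyond the threshold (adjusted P = 0.0523, edgeR's quasi-likelihood test), which 9 of the 16 alternatives met, DESeq2 among them. With the offsets 5 of the 8 were called, all higher at 16 months, against 13.9% of all genes tested. They were Tubb2a, Tubb4b, Tubb5, Tubb4a and Tuba4a, named here after their values were seen, with log2 differences of 0.26, 0.17, 0.12, 0.11 and 0.10.

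The remaining 5 lists, with 85 genes tested, held 0 called genes in the quasi-likelihood fit of edgeR. The unadjusted P-value was under 0.05 for 13 of them, against 17.4% of all genes tested. DESeq2 called 1, against 2.67% of its genes. Among the linkers and proteases of intermediate filaments (11 genes, median log2 difference -0.02), the calpain gene Capn2 had the smallest P-value, with a mean of 84.7 CPM at 6 months and 98.1 CPM at 16 months (log2 difference 0.21, SE 0.05, adjusted P = 0.0857, edgeR). Among the genes of tubulin folding and modification (24 genes, median 0.0016) it was Sirt2, a tubulin deacetylase abundant in oligodendrocytes, with a log2 difference of 0.13 (adjusted P = 0.214, edgeR). Among the cytoskeletal kinases (19 genes, median 0.09) it was Camk2b, a calcium-dependent kinase that binds actin, with 0.19 (adjusted P = 0.166, edgeR).

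Among the axonal transport motors (20 genes, median 0.01) the smallest P-value belonged to Kif5b, a kinesin heavy chain, with a log2 difference of -0.24 (adjusted P = 0.149, edgeR's quasi-likelihood test). The genes of the axon initial segment and the spectrin scaffold (11 genes, median 0.10) lay above 0 in 10 cases, and Sptan1, the alpha-spectrin of brain, had the smallest P-value, with 1161 ± 13.3 CPM at 6 months and 1302 ± 34.7 CPM at 16 months (SD, n = 3 each, adjusted P = 0.115, edgeR). With the offsets, 3 of the 11 scaffold genes and 6 of the 19 kinases were called, all higher, with 5 of the 20 motor genes, of which 4 were lower, 3 of the 11 linkers and proteases, of which 2 were lower, and 2 of the 24 genes of folding and modification, both higher, against 13.9% of all genes tested.

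**Figure D5:**
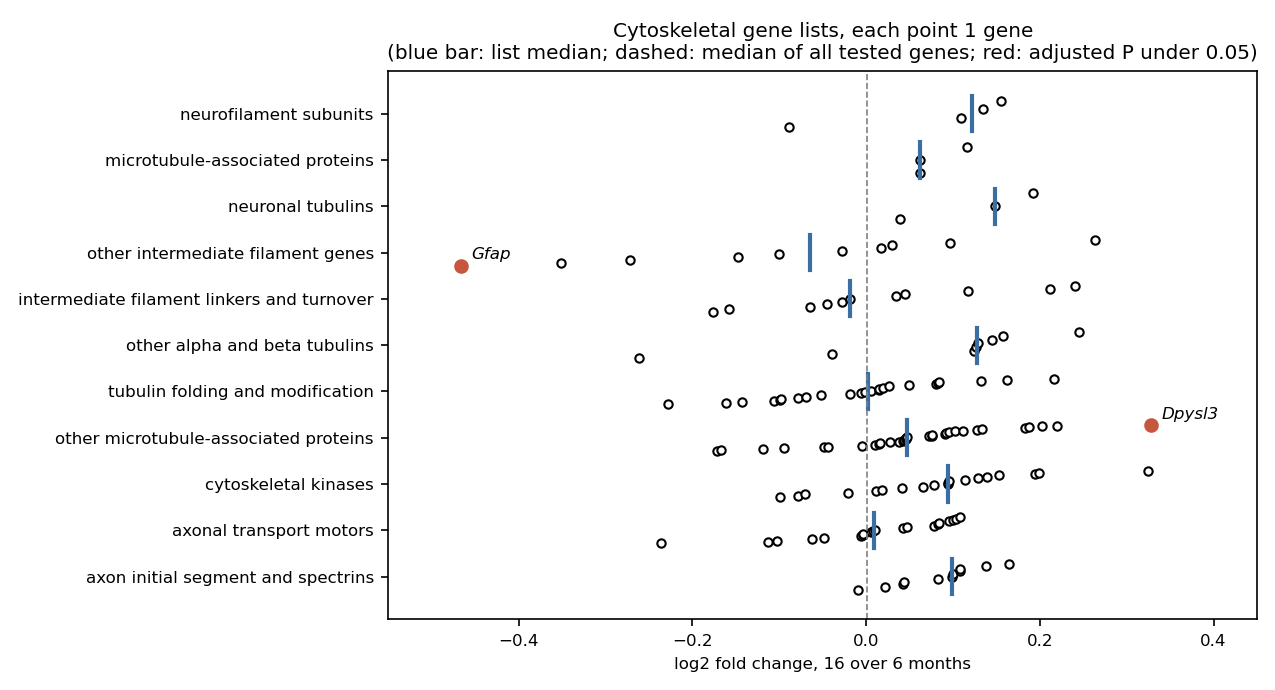
Log2 fold change of 16 over 6 months (horizontal axis) for every tested gene (points) of the 10 genes in their 3 groups and of the 8 other lists of the cytoskeleton, with list medians (blue bars), the median of all tested genes (dashed line) and genes called by edgeR (red). Gfap lies far to the left and Dpysl3 to the right, and the medians of the neuronal tubulins and of the other tubulins are alike, at 0.15 and 0.13.

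Markers of other cells and regions were read beside these values, and none of these marker genes was at or under 3 counts in all 6 samples. The pan-neuronal list had 0 of 10 genes called (median log2 difference 0.09), the excitatory list 0 of 10 (median 0.09), the list of layer 5 projection neurons, which are rich in neurofilament, 0 of 8 (median -0.00067) and the GABAergic list 0 of 10 (median 0.09). DESeq2 called 0 genes in these 4 lists too, against 2.67% of its genes. The unadjusted P-value of edgeR was under 0.05 for 0, 2, 2 and 3 of their genes, against 17.4% of all genes tested. With the offsets 3, 3, 1 and 6 of them were called, of which 3, 2, 1 and 5 were higher, against 13.9% of all genes tested. In the list of PV interneurons, a cell type also rich in neurofilament, 1 of 10 was called, Pvalb, with a log2 difference of -1.21. Over all genes tested, edgeR called 1.67%. The unadjusted P-value of edgeR was under 0.05 for 3 of the 10 PV markers, all lower, against 17.4% of all genes tested. DESeq2 called 1 of them, against 2.67% of its genes. With the offsets 2 of them were called, both lower, against 13.9% of all genes tested. The summed level of these lists overlapped between the ages except for the GABAergic list, with 1468 to 1508 CPM at 6 months and 1599 to 1632 CPM at 16 months.

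Markers of regions next to the cortex were partly higher at 16 months. Of 9 tested thalamic markers, 5 were called by edgeR, all higher (median log2 difference 0.32), against 1.67% of all genes tested. The sum of the thalamic markers was between 238.3 and 249.1 CPM at 6 months and between 252 and 289.2 CPM at 16 months. Of 8 markers of the dentate gyrus 3 were called higher (sum 277.2 to 281.8 and 293.4 to 325.7 CPM), of 8 of the striatum 2 (666.4 to 678.9 and 750.8 to 775.6 CPM) and of 7 of the choroid plexus 1 (17.1 to 18.3 and 25.7 to 28.7 CPM). With the offsets 6 thalamic, 4 dentate gyrus, 2 striatal and 1 choroid plexus markers were called, all higher, against 13.9% of all genes tested. The list of newborn neurons had 0 of 7 called by edgeR (median 0.55, 150.6 to 159 and 163.6 to 169.8 CPM). The unadjusted P-value was nevertheless under 0.05 for all 7, against 17.4% of all genes tested. DESeq2 called 2, both higher, against 2.67% of its genes. The fitted difference was above 0 for 6 of the 7 and below 0 for Dcx, at -0.17 on the log2 scale. With the offsets 4 of the 7 were called higher and 1, Dcx, lower, against 13.9% of all genes tested. In glia and vessels, edgeR called 2 of 10 oligodendrocyte markers, 1 in each direction, and 1 of 6 precursor markers, which was higher. It called 1 of 10, each time lower, in the lists of astrocytes, microglia and vessels. In the order oligodendrocytes, precursors, astrocytes, microglia and vessels, the unadjusted P-value of edgeR was under 0.05 for 6, 2, 7, 3 and 4 markers. This compares with 17.4% of all genes tested. DESeq2 called 4, 2, 5, 2 and 1, against 2.67% of its genes. With the offsets 7, 2, 7, 3 and 5 were called, of which 4, 2, 4, 1 and 1 were higher, against 13.9% of all genes tested. The part of these cells and regions in the values of the 10 cytoskeletal genes was not tested.

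The genes most like the mean of the neurofilament genes over the 6 samples were sought among 10258 other genes with a mean of at least 10 CPM. The measure was the root mean square difference from the mean centred log2 level of Nefl, Nefm, Nefh and Ina, whose own root mean square was 0.04. The 5 closest genes were Cbr1, Sf3b2, Coq5, Gga2 and Tcf20, with differences between 0.0072 and 0.0136. With a mean of at least 50 CPM required, Sf3b2 and Tcf20 remained among the 5.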

How the data were processed

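Polyadenylated RNA of 6 cortical samples was sequenced as paired-end reads. The study describes trimming with fastq-mcf, alignment to mm10 with STAR and counting per Ensembl gene with HTSeq, whereas the submitters' processing notes list CASAVA 1.8.2, STAR 2.3.0e and featureCounts 1.5.0-p1. The Ensembl release and the strand setting are not given in the sources used here. The values deposited by the authors are raw counts per gene, without normalization, and they tested them with DESeq2.

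Of the 38355 genes listed, 36602 matched GENCODE M21 (GRCm38) by identifier. Counts were tested in R 4.3.3 with edgeR 4.0.16 (TMM, filterByExpr, 17120 genes kept, quasi-likelihood test, Benjamini-Hochberg adjustment over all of them at 0.05, no covariates), and log2 levels use a prior count of 2. Depth was between 29797253 and 46519280 counts on genes per sample. Ratios and shares within a sample were compared with exact permutation tests. Copies were searched with blastn 2.17.0 (97% identity over 100 bases) and figures drawn with matplotlib 3.10.9. The test was also run on simulated counts with a common dispersion and no GC trend, so that run does not cover the trend between these samples. Offsets were medians over 20 bins of genes by GC content and by length in each sample, and 98.7% of tested genes had both values.

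The alternatives were DESeq2 1.42.0, its size factors or upper quartile scaling in edgeR, other count filters, the robust and the newer quasi-likelihood fit, the offsets, the replicate number as a block, another length or prior count and each sample left out in turn. Offsets combined with leaving out a 16-month sample, and leaving out samples 1 and 2 of 16 months together, were added after seeing the data. Named are the 10 genes, in each list of the cytoskeleton the called genes or else the gene with the smallest P-value, and the 5 genes most alike. The genes and all lists were chosen with earlier results of these data known.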

Additional observations from a re-analysis of the deposited data

How the results depend on the processing

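The count of genes called, 286 with the counts as deposited, was 648 without a filter on low counts, 470 by DESeq2, 783 with the replicate block, 2383 with the offsets for GC content and length and 3138 with both offsets and block. It lay between 48 and 2211 when each sample was left out in turn, with 995 and 2211 calls without samples 1 and 2 of 16 months and at most 58 without any other sample. With the offsets it was 2562 without sample 1 and 2591 without sample 2 of 16 months, and it was 1719 without both of them and no offsets, where the lone sample of 16 months is assumed to vary like the others. Of the 10 cytoskeletal genes, 0 were called with the counts as deposited and 2 with the offsets. Between 0 and 4 were called when each sample was left out. In the added fits 5, 4 and 3 were called, in the same order, against 14.7%, 14.9% and 10% of the genes tested. They were Nefm, Nefh, Ina, Tubb3 and Tuba1a without sample 1, Nefl (lower), Map1b, Tubb3 and Tuba1a without sample 2, and Nefm, Ina and Tubb3 without both. The cause of these changes was not tested. Tubb3 and Tuba1a were called in 3 of the 16 alternatives planned at the start, Nefh and Ina in 2, Nefl and Map1b in 1 and the other 4 genes in 0. The log2 difference changed sign in 1 alternative each for Map1a and Map2 and in none for the other 8. All ratios and shares kept their direction apart from Map2 to Map1a, which lay between -0.12 and 0.13 when each sample was left out, and none could pass the threshold in a design of 3 against 3, with log2 differences for Nefm to Nefl between 0.17 and 0.26 and for Ina to Nefl between 0.17 and 0.30 when each sample was left out. Of the 5 genes most alike, 2 remained when a mean of at least 50 CPM was required.

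The replicate numbers that both ages carry are not said to mark a shared animal, litter or batch. Same-numbered samples deviated together with r = 0.18, 0.0958 and 0.0351 across genes. Between samples with different numbers r ran from -0.133 to 0.0379. Whether the numbers mark pairs of samples was not tested. Every sample correlated best with its own number except sample 3 of 16 months, which was closest to sample 2 of 6 months (r = 0.0379). With the replicate number as a block 0 of the 10 genes were called, against 4.57% of all genes tested, and with block and offsets 6 were called (Nefh, Ina, Map1b, Tubb3 and Tuba1a higher, Nefl lower), against 18.3%.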
